A study of Homo sapiens with 12 samples.

Results

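Nucleotide excision repair removes bulky lesions from DNA, among them the adducts that cisplatin leaves between bases of one strand. The 10 genes described here are its core: DDB2 and XPC, which find damage anywhere in the genome; ERCC6 and ERCC8, known as CSB and CSA, which act where RNA polymerase stalls; ERCC2 and ERCC3, the helicase subunits XPD and XPB of the factor TFIIH, which opens the helix; XPA, which verifies the damage; and ERCC5 (XPG) and the pair ERCC1 and ERCC4 (XPF), the nucleases that cut on either side of the lesion. They were chosen by name, as a list of the pathway's core genes. All 10 were among the 14029 genes of the deposited table that were tested, and no further filter on low values was applied.

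The study used the established human ovarian cancer line ES-2, which carried either the control vector PLKO (labelled WT) or an shRNA against SRMS (labelled SRMS knockdown), a non-receptor tyrosine kinase. Each of the groups compared here had 3 libraries of poly(A) RNA, and every one of these cultures had received cisplatin at 15 µM for 8 hours. The 6 samples given PBS are not analysed here, so the values say how the constructs differed under the drug and not how repair genes responded to it. The labels name no hairpin sequence, clone or pool, and do not state whether replicates were grown separately, so the p-values reflect how far these libraries spread, which may be technical.

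The libraries held 28009232 to 56855428 reads, as recovered from the deposited values. SRMS itself was counted in 2, 14 and 47 reads with the vector and 9, 39 and 27 in the libraries labelled SRMS shRNA. Its mean value was 0.397 ± 0.384 and 0.755 ± 0.384 (SD, n = 3 each), a difference of 0.52 on the log2 scale (limma adjusted p = 0.168), so no fall of the target was seen. When replicate numbers entered the model as a block, the adjusted p was 0.00782, toward more SRMS. Directions below are therefore those of the libraries as labelled. KRT7, KRT8 and KRT18, keratins of epithelial cells, had means of 697, 92.9 and 875 with the vector and 543, 105 and 1015 with SRMS shRNA; KRT7 was called lower, and KRT8 and KRT18 higher. PAX8, a marker of ovarian carcinoma, was near 0 at 0.136 and 0.241. EPCAM, MUC16 and CDH1 are not analysed here. Of the marker lists of other cell types, 2 of 4 leukocyte, 2 of 3 endothelial and 3 of 4 fibroblast genes were measured. Their summed levels were 0.742 to 1.17, 14.1 to 16.1 and 1246 to 1250 with the vector, and 3.05 to 3.71, 5.63 to 7.41 and 821 to 827 with SRMS shRNA. Most of each sum came from 1 gene: CD14 (0.879 and 3.24), CDH5 (15.2 and 6.12) and COL1A1 (1238 and 816). PECAM1, of the endothelial list, had 0.211 and 0.393, the other way from CDH5, and was not called. Of the mesenchymal list VIM was called higher (5387 and 6575) and CDH2 lower (71.3 and 63.1). No measured marker was at 0 in a whole group, and the part of these differences in the results below was not tested. RNA from whole cultures cannot tell fewer cells of a kind from less RNA per cell.

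The 250 bases ahead of the outermost RefSeq start of DDB2, and the same for the 2 genes that fell, ERCC6 and ERCC4, are shown as the upstream sequences of the genes with the clearest rise and the called falls. DDB2 and ERCC6 have a second RefSeq start each, nearer the 5′ end of the transcript chosen here. For DDB2 it lies 32 nt from that end, against 488 nt for the start shown, and for ERCC6 95 against 512 nt. The sequences are those of RefSeq (GRCh38.p14), in which all 10 genes matched by symbol. Capitals mark CCAAT boxes (CCAAT or ATTGG) and GC boxes (GGGCGG or CCGCCC), searched on both strands. The windows lie at chr11:47214204-47214453 on the plus strand, chr10:49539539-49539788 on the minus strand and chr16:13919904-13920153 on the plus strand.
DDB2: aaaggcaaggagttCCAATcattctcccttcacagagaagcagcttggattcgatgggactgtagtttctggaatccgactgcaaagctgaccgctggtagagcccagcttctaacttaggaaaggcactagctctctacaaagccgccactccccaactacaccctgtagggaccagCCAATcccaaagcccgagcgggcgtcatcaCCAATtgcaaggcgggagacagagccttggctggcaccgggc
ERCC6: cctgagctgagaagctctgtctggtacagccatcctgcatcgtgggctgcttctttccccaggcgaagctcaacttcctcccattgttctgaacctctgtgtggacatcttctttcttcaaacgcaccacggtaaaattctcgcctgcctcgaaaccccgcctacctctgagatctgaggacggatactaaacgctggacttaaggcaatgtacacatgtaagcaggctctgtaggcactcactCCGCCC
ERCC4: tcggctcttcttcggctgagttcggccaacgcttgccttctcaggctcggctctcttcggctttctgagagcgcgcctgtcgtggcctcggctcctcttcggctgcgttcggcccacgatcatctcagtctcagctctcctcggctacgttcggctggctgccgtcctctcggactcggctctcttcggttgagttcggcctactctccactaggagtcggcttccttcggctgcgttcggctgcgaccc
The DDB2 window held 3 CCAAT boxes and no GC box, the ERCC6 window 1 GC box, and the ERCC4 window neither. At the other starts, not printed, DDB2 had 3 GC boxes and no CCAAT box, and ERCC6 had neither. CCAAT boxes occur in 32.0% and GC boxes in 42.6% of all such windows. GC content was 55.6%, 53.2% and 63.6%.

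DDB2, ERCC1 and ERCC5 rose in the libraries labelled SRMS shRNA, ERCC4 and ERCC6 fell, and ERCC2, ERCC3, ERCC8, XPA and XPC did not pass the test. The list thus had 5 of 10 genes called by limma at an adjusted p under 0.05, against 56.8% of all genes tested. Those called higher were 3 of 10, against 26.6%, and those called lower 2 of 10, against 30.2%. For 4 of 10 the groups shared no range of values, against 62.7%. These shares lie near or below the background, so the count is no result about excision repair. The differences were also small. The median log2 fold change was -0.02 over the list and 0.00 over all genes, the median absolute change was 0.15 against 0.23, and no member reached 0.5.

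**Figure D1:**
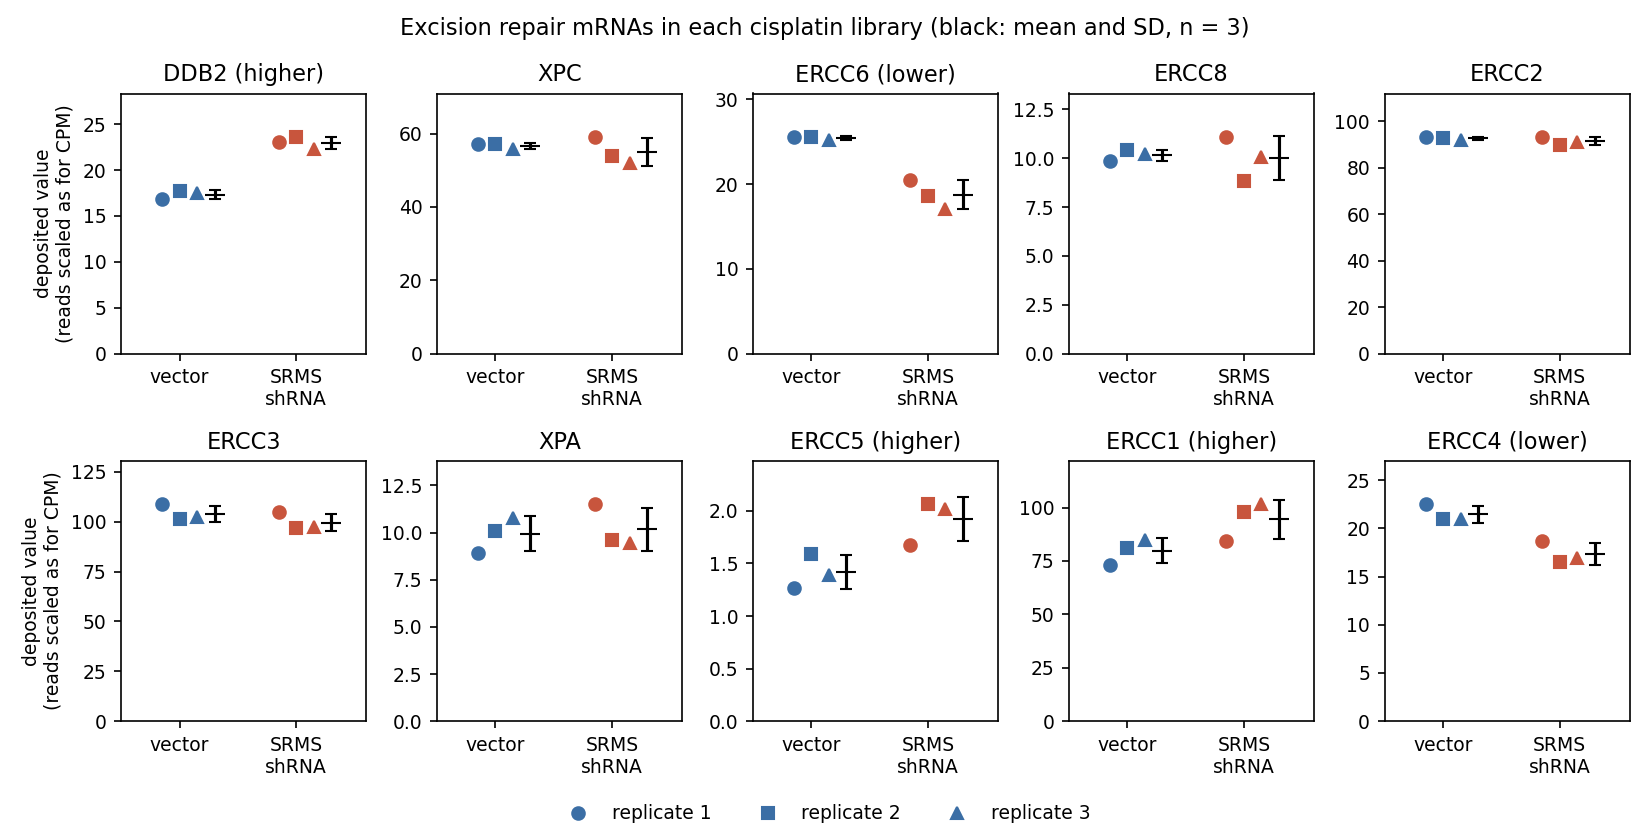
Each panel shows 1 gene, with the deposited value (reads scaled as for CPM) on the vertical axis from 0 and the 3 libraries of each construct as separate marks; black bars give the mean and SD (n = 3). DDB2, ERCC4, ERCC5 and ERCC6 have groups that do not overlap, and ERCC1 overlaps through replicate 1.

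Damage recognition across the genome held the clearest rise. DDB2 joins DDB1 to form the complex that binds damaged DNA and recruits XPC. Its value was 16.8, 17.7 and 17.5 with the vector and 23.0, 23.6 and 22.3 with SRMS shRNA. Every SRMS shRNA library thus lay above every vector library, and the means were 17.3 ± 0.474 and 23.0 ± 0.684 (SD, n = 3 each), a rise of 32.5%. This gave a log2 fold change of 0.40 (SE 0.0562, 95% interval 0.27 to 0.52, limma adjusted p = 0.000187). DDB2 stayed past the threshold, in the same direction, in all 19 alternative fits, with log2 fold changes of 0.26 to 0.56. The gene (ENSG00000134574) lies on the plus strand of chromosome 11, from 47214465 to 47239240 in GRCh38.

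XPC, the sensor that DDB2 hands damage to, did not pass the test. It read 57.0, 57.3 and 55.7 with the vector and 59.1, 53.8 and 51.9 with SRMS shRNA. The SRMS shRNA values lay on both sides of the vector values, and the log2 fold change was -0.05 (95% interval -0.16 to 0.07, limma adjusted p = 0.465). Differences within that interval, in either direction, are not shown to be absent. Without replicate 1 of both groups XPC had -0.10 (limma adjusted p = 0.0332). LSM3, on the opposite strand and overlapping 6.63% of XPC's exon bases, rose from 114 ± 7.96 to 149 ± 17.8 (SD, n = 3 each).

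Partners of these sensors were called in both directions, but not in every fit. DDB1, which holds DDB2 in its ubiquitin ligase, fell from 489 ± 10.1 to 440 ± 13.9 (SD, n = 3 each; log2 fold change -0.15, limma adjusted p = 0.00377), and had 0.01 once each library was scaled to the same median value (median alignment). The ratio of DDB2 to DDB1 values was 0.0336, 0.0365 and 0.0364 with the vector and 0.0507, 0.0538 and 0.0522 with SRMS shRNA. Such ratios are descriptions, and the pairs were picked partly after the values were seen. No ratios of genes outside the pathway were computed to set beside them. RAD23B, which stabilizes XPC, fell from 200 ± 2.62 to 166 ± 1.86, and CETN2, the third protein of the XPC complex, rose from 27.6 ± 1.51 to 30.8 ± 0.651. Of 7 other genes of this step 2 rose (RBX1 and CETN2) and 4 fell (RAD23B, CUL4A, CUL4B and DDB1). Over all genes 26.6% rose and 30.2% fell. After median alignment the counts were 3 and 1, beside 6254 and 2510 of all 14029 genes. In the blocked fit without length and GC trends they were 0 and 4, beside 4305 and 4240 of all genes. There RBX1 (limma adjusted p = 0.0533) and CETN2 (0.444) were no longer called.

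In the branch tied to transcription, ERCC6 fell and ERCC8 did not pass the test, and the difference between them was not tested. ERCC6, a SWI/SNF-type ATPase that binds stalled RNA polymerase, read 25.5, 25.6 and 25.2 with the vector and 20.5, 18.6 and 17.1 with SRMS shRNA. All SRMS shRNA libraries lay below all vector libraries, and the SD grew from 0.22 to 1.70 while the mean went from 25.4 to 18.7, a change of -26.3%. This gave a log2 fold change of -0.43 (SE 0.0685, 95% interval -0.59 to -0.28, limma adjusted p = 0.000382). It stayed past the threshold in all 19 alternative fits, but shrank to -0.16 (limma adjusted p = 0.0113) when transcript length and GC trends were taken out of each library in the blocked fit. ERCC6 (ENSG00000225830) is encoded on the minus strand of chromosome 10, between 49455368 and 49539538.

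ERCC8, the substrate receptor that works with ERCC6, read 9.84, 10.4 and 10.2 with the vector and 11.1, 8.83 and 10.1 with SRMS shRNA. The SRMS shRNA libraries spanned the vector values, and the log2 fold change was -0.03 (95% interval -0.22 to 0.17, limma adjusted p = 0.824). The ratio of ERCC8 to ERCC6 was 0.399 ± 0.0121 with the vector and 0.535 ± 0.0576 with SRMS shRNA (SD, n = 3 each). Part of the ERCC8 exons, 28.3%, overlaps a processed pseudogene on the same strand.

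Of 9 other genes of this branch 3 rose (HMGN2, STK19 and XAB2) and 3 fell, against 26.6% and 30.2% of all genes. USP7, the deubiquitinase that protects ERCC6 together with UVSSA, fell from 192 ± 2.37 to 123 ± 2.48, and ELOF1, an elongation factor, from 61.2 ± 4.50 to 44.0 ± 1.70 (SD, n = 3 each). POLR2A, the large subunit of RNA polymerase II, stood at -0.24 on the log2 scale (limma adjusted p = 0.0344), with groups that overlapped. UVSSA, at 7.45 ± 0.367 and 6.54 ± 0.54, was not called (limma adjusted p = 0.113). After median alignment 4 rose and 2 fell, beside 6254 and 2510 of all 14029 genes. In the blocked fit without length and GC trends it was 0 and 4, beside 4305 and 4240 of all genes. POLR2A, at -0.35, was among the 4 falls, with its length taken as 2083 nt from the chosen transcript. Other transcripts were not tried.

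By the 1 transcript chosen per gene, the TFIIH helicases had the highest levels per length of the 10 genes with the vector. Neither passed the test. ERCC3 read 109, 101 and 102 with the vector and 105, 96.8 and 97.4 with SRMS shRNA. Replicate 1 was the highest in both groups, and the ranges overlapped. The log2 fold change was -0.06 (95% interval -0.16 to 0.04, limma adjusted p = 0.251). With the replicate block, where each of the 3 same-numbered pairs was at -0.05, -0.06 or -0.07 on the log2 scale, the same change had an adjusted p of 0.0487, against a share of 65.3% of all genes called in that fit. ERCC3 had 0.10 after median alignment, so its sign depends on the scaling.

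ERCC2 read 93.3, 92.7 and 91.9 with the vector and 93.1, 89.8 and 91.2 with SRMS shRNA. These 6 values spanned less than those of any other member relative to their mean, and the log2 fold change was -0.02 (95% interval -0.10 to 0.06, limma adjusted p = 0.661). Median alignment turned it to 0.14 (limma adjusted p = 0.00457). KLC3, on the opposite strand, overlaps 8.29% of the exon bases of ERCC2 and had 36.3 ± 1.29 and 39.3 ± 0.916 (SD, n = 3 each; limma adjusted p = 0.0602, and 0.0163 with the replicate block).

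Other TFIIH subunits were called in both directions. Of the 10 subunits, with ERCC2 and ERCC3, 4 rose and 3 fell, against 26.6% and 30.2% of all genes. GTF2H5, the small subunit that stabilizes the complex, rose from 27.8 ± 1.23 to 37.9 ± 0.991, and MNAT1 and CCNH, which form the kinase module with CDK7, rose from 21.9 ± 1.30 to 26.7 ± 1.76 and from 87.2 ± 3.76 to 98.1 ± 4.12. CDK7, the kinase itself, fell from 32.7 ± 1.10 to 24.9 ± 1.39, and GTF2H2 from 62.7 ± 3.81 to 48.0 ± 1.93 (SD, n = 3 each). GTF2H2 has near-identical copies in the genome, so its value is uncertain. The counts were 5 and 2 after median alignment, beside 6254 and 2510 of all 14029 genes. They were 2 and 4 in the blocked fit without length and GC trends, beside 4305 and 4240 of all genes.

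XPA, the scaffold that checks the opened helix, read 8.93, 10.1 and 10.8 with the vector and 11.5, 9.62 and 9.43 with SRMS shRNA. The highest and the lowest of the 6 values were both replicate 1, and the same-numbered pairs differed in sign. The log2 fold change was 0.03 (95% interval -0.18 to 0.25, limma adjusted p = 0.794). RPA, the single-strand binding complex that works with XPA, had 1 subunit lower, RPA1 at -0.27, and 1 higher, RPA3 at 0.23, with RPA2 not called (limma adjusted p = 0.0529, and 0.00666 with the replicate block, higher). Over all genes 30.2% were lower and 26.6% higher. After median alignment the RPA counts were 0 lower and 2 higher, beside 2510 and 6254 of all 14029 genes. In the blocked fit without length and GC trends they were 1 and 1, beside 4240 and 4305 of all genes.

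The nuclease pair that cuts 5′ of the lesion changed in opposite directions: ERCC1 rose and ERCC4 fell. ERCC1 and ERCC4 form an obligate dimer, in which ERCC4 carries the active site. ERCC4 read 22.5, 21.0 and 21.0 with the vector and 18.6, 16.5 and 16.9 with SRMS shRNA. All SRMS shRNA libraries lay below all vector libraries, with means of 21.5 ± 0.873 and 17.3 ± 1.15 (SD, n = 3 each). This gave a log2 fold change of -0.30 (SE 0.0656, 95% interval -0.45 to -0.16, limma adjusted p = 0.00276). This call ended after median alignment (-0.14, limma adjusted p = 0.0717), with quantile scaling (-0.16, adjusted p = 0.0538) and in the blocked fit without length and GC trends (-0.03, adjusted p = 0.672). ERCC4 (ENSG00000175595) lies on the plus strand of chromosome 16, from 13920157 to 13952345.

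ERCC1 read 73.2, 81.3 and 84.7 with the vector and 84.3, 98.1 and 102 with SRMS shRNA. Replicate 1 was the lowest in both groups, and SRMS shRNA replicate 1 fell just below vector replicate 3, so the groups overlapped. Means were 79.7 ± 5.88 and 94.6 ± 9.12 (SD, n = 3 each), with a log2 fold change of 0.24 (SE 0.0726, 95% interval 0.08 to 0.40, limma adjusted p = 0.0154). The same-numbered pairs differed by 0.20, 0.27 and 0.26 on the log2 scale. With the replicate block, where 65.3% of all genes were called, the limma adjusted p was 1.68e-07. That fit rests on a pairing by number, which the labels do not state. The call of the main fit was lost without vector replicate 1 (0.18, limma adjusted p = 0.058). In the SRMS shRNA group it was lost without replicate 2 (0.22, adjusted p = 0.0629) or 3 (0.19, adjusted p = 0.0694). It was also lost with replicates 2 and 3 averaged (0.23, adjusted p = 0.0725). The same held when the prior variance did not follow the mean (adjusted p = 0.0597). In the blocked fit without length and GC trends the log2 fold change was 0.30, with the length of the chosen transcript, 3828 nt.

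ERCC1 (ENSG00000012061) is encoded on the minus strand of chromosome 19, between 45407333 and 45478828, and 28.6% of its exon bases overlap POLR1G, which encodes a subunit of RNA polymerase I on the other strand. POLR1G rose as well, from 94.8 ± 3.37 to 117 ± 2.71 (SD, n = 3 each; log2 fold change 0.30, limma adjusted p = 0.000112). The libraries were prepared by a stranded protocol, but whether counting used the strand is not given in the sources used here. Without it, reads of the 2 genes cannot be told apart where they overlap. The same holds for XPC with LSM3 and with 2 unnamed genes over 23.8% and 8.61% of its exon bases, ERCC2 with KLC3, and ERCC4 with an antisense gene over 25.7% of its exon bases.

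The ratio of ERCC1 to ERCC4 values was 3.26, 3.88 and 4.04 with the vector and 4.52, 5.94 and 6.01 with SRMS shRNA. All SRMS shRNA libraries had the higher ratio, and the means were 3.72 ± 0.412 and 5.49 ± 0.843 (SD, n = 3 each). The ratios of DDB2 to DDB1, ERCC8 to ERCC6 and XPC to RAD23B also had groups that did not overlap. Each of these pairs, ERCC1 and ERCC4 included, holds a gene already called, so such separation adds no evidence to those calls. Among single genes, 62.7% of all tested had groups that did not overlap. The ratio of XPC to RAD23B was 0.284 ± 0.00597 with the vector and 0.330 ± 0.0196 with SRMS shRNA. The ratio of ERCC2 to ERCC3, at 0.890 ± 0.0294 and 0.918 ± 0.0258, had groups that overlapped. SLX4, the scaffold that brings ERCC4 to interstrand crosslinks, fell from 17.3 ± 0.904 to 11.3 ± 1.47, and MUS81, another nuclease held by SLX4, from 56.2 ± 3.50 to 42.6 ± 2.24. Of 5 genes of that list 3 fell, FAN1 being the third, and 0 rose, against 30.2% and 26.6% of all genes. After median alignment it was 2 lower and 1 higher, beside 2510 and 6254 of all 14029 genes. With the replicate block it was 4 lower, beside 4805 of all genes. The blocked fit without length and GC trends gave 2 lower, beside 4240 of all genes.

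ERCC5, the nuclease that cuts 3′ of the lesion, was counted in few reads. It had 38, 73 and 80 reads with the vector and 46, 75 and 63 with SRMS shRNA, which gave values of 1.27, 1.59 and 1.39 against 1.68, 2.06 and 2.01. The groups did not overlap, and limma put the log2 fold change at 0.33 (SE 0.119, 95% interval 0.07 to 0.60, limma adjusted p = 0.035). This call was lost without any one of vector replicate 1 (adjusted p = 0.111), vector replicate 3 (0.0899) and, in the SRMS shRNA group, replicate 2 (0.105) or 3 (0.0942), by DESeq2 (0.101), with quantile scaling (0.138) and with replicates 2 and 3 averaged (0.107). A read-through gene, BIVM-ERCC5, shares 63.2% of the exon bases of ERCC5 on the same strand. Reads that fit both may be split or dropped in counting, so the low level of ERCC5 is uncertain.

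Gap filling follows the cuts. Of 18 genes for clamp, clamp loader, polymerases and ligases 4 rose and 8 fell, against 26.6% and 30.2% of all genes. After median alignment of the libraries 10 rose and 5 fell. In the blocked fit without length and GC trends 2 rose and 9 fell. RFC1, the large clamp loader subunit, fell from 136 ± 4.28 to 87.1 ± 1.92, and POLD3, of polymerase delta, from 24.4 ± 0.493 to 13.5 ± 1.38. POLE4, a small subunit of polymerase epsilon, rose from 50.2 ± 0.833 to 74.0 ± 2.95 (SD, n = 3 each). PCNA, the clamp, and LIG1, the ligase, had log2 fold changes of 0.08 and 0.01 and were not called; PCNA was called higher with the replicate block (limma adjusted p = 0.00282). Over the 50 other pathway genes 14 rose and 22 fell, beside 3736 and 4233 over all genes. The median log2 fold change of the 50 was -0.09. After median alignment it was 24 and 12, with a median of 0.07. In that fit 6254 of all 14029 genes were called higher and 2510 lower. In the blocked fit without length and GC trends it was 5 and 23, with a median of -0.03, beside 4305 and 4240 over all genes. The balance of rises and falls over these lists thus depends on the fit, as does that over all genes. The all-gene medians in the same fits were 0.00, 0.16 and 0.01, each above that of the 50. This difference was not tested.

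**Figure D2:**
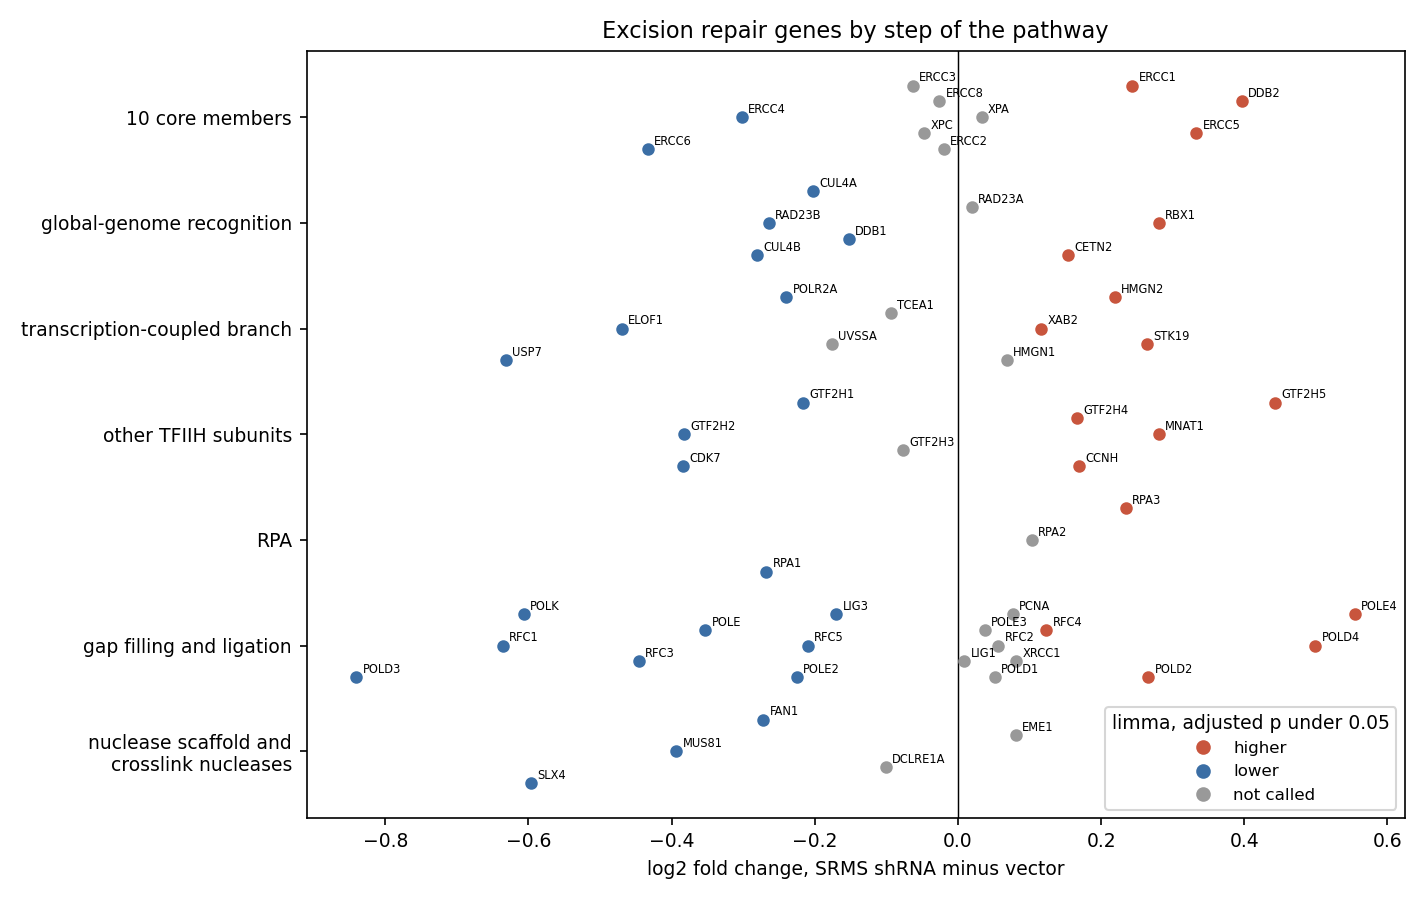
Each point is 1 gene, placed by its log2 fold change (SRMS shRNA minus vector) on the horizontal axis and by its step of the pathway on the vertical axis; red marks genes called higher, blue lower and grey not called by limma at an adjusted p under 0.05. Every step except the crosslink nucleases holds genes called in both directions, and the core genes lie between -0.43 and 0.40.

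Levels of the 10 genes can be compared only per length, as the deposited value divided by transcript length in kb. The length is that of the 1 transcript chosen per gene. The order depends on this choice, and other transcripts were not tried. With the vector, ERCC3 stood highest at 37.9 ± 1.47 per kb, followed by ERCC2 at 22.5 ± 0.168, ERCC1 at 20.8 ± 1.54, XPC at 14.8 ± 0.218, DDB2 at 9.27 ± 0.253, XPA at 7.01 ± 0.655, ERCC8 at 5.03 ± 0.144, ERCC4 at 3.18 ± 0.129, ERCC6 at 3.17 ± 0.0275 and ERCC5 at 0.279 ± 0.032 (SD, n = 3). ERCC4 and ERCC6 did not differ beyond their spread. ERCC2 and ERCC1 were close, with every vector library of ERCC2 above those of ERCC1. With SRMS shRNA ERCC1, at 24.7 ± 2.38, stood above ERCC2, at 22.2 ± 0.396, and ERCC4, at 2.57 ± 0.169, above ERCC6, at 2.34 ± 0.213, with libraries that overlapped in both pairs. The other places in the order were unaltered.

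Transcript length moved with the difference between constructs over all genes. Genes were put in 5 equal groups by length. The 2806 with the shortest transcripts (median 1260 nt) had a median log2 fold change of 0.23 and the 2806 with the longest (median 7074.5 nt) of -0.23. ERCC4, at 6758 nt, and ERCC6, at 8008 nt, both fell and are the 2 members in the group with the longest transcripts. DDB2, at 1870 nt, lies in the next to shortest group, whose median was 0.09. ERCC1, at 3828 nt, and ERCC5, at 5082 nt, rose although their group had a median of -0.12. In the blocked fit without length and GC trends, where 60.9% of all genes were called, the called members were DDB2, ERCC1 and ERCC5 higher and ERCC6 and ERCC3 lower (ERCC3 at -0.07, limma adjusted p = 0.0194).

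**Figure D3:**
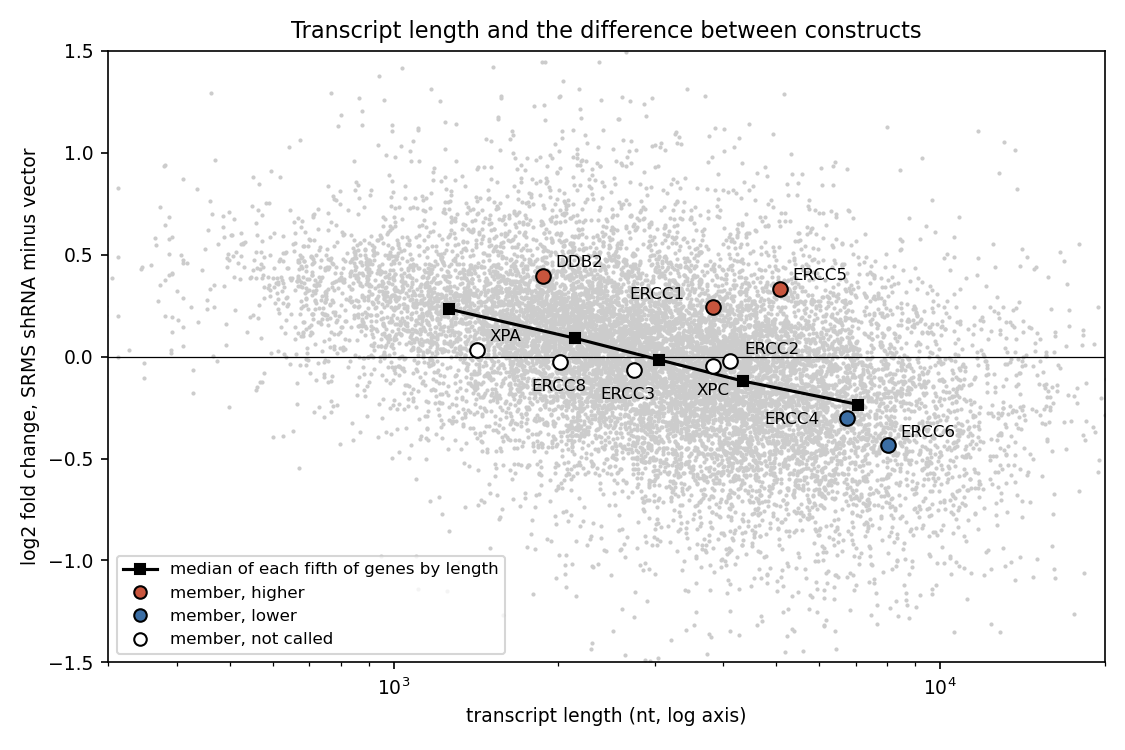
Transcript length in nt (log axis) is plotted against the log2 fold change of each gene (grey points; 56 genes lie outside the axes), with the medians of 5 groups of genes by length as black squares and the 10 excision repair genes as large circles. By the lengths of the chosen transcripts, ERCC4 and ERCC6 sit near the low end of the falling medians, while ERCC1 and ERCC5 lie above them.

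Calls of the members also varied with scaling and with the libraries used. Median alignment moved the all-gene median from 0.00 to 0.16 (log2), and that of the 10 members from -0.02 to 0.14. The called members were then DDB2, ERCC1, ERCC5 and ERCC2 higher and ERCC6 lower, against a background of 62.5%. ERCC2, at 0.14, then lay just under the all-gene median. Quantile scaling left 3 members called (DDB2, ERCC1, ERCC6), with 54.6% of all genes called. The edgeR quasi-likelihood test on recovered reads called the same 5 members as limma, beside 57.4% of all genes. Leaving out replicate 1 of both groups gave 7, with ERCC3 and XPC added as lower, beside 62.3%. Averaging replicates 2 and 3 gave 3 (DDB2, ERCC4 and ERCC6), beside 43.3%.

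**Figure D4:**
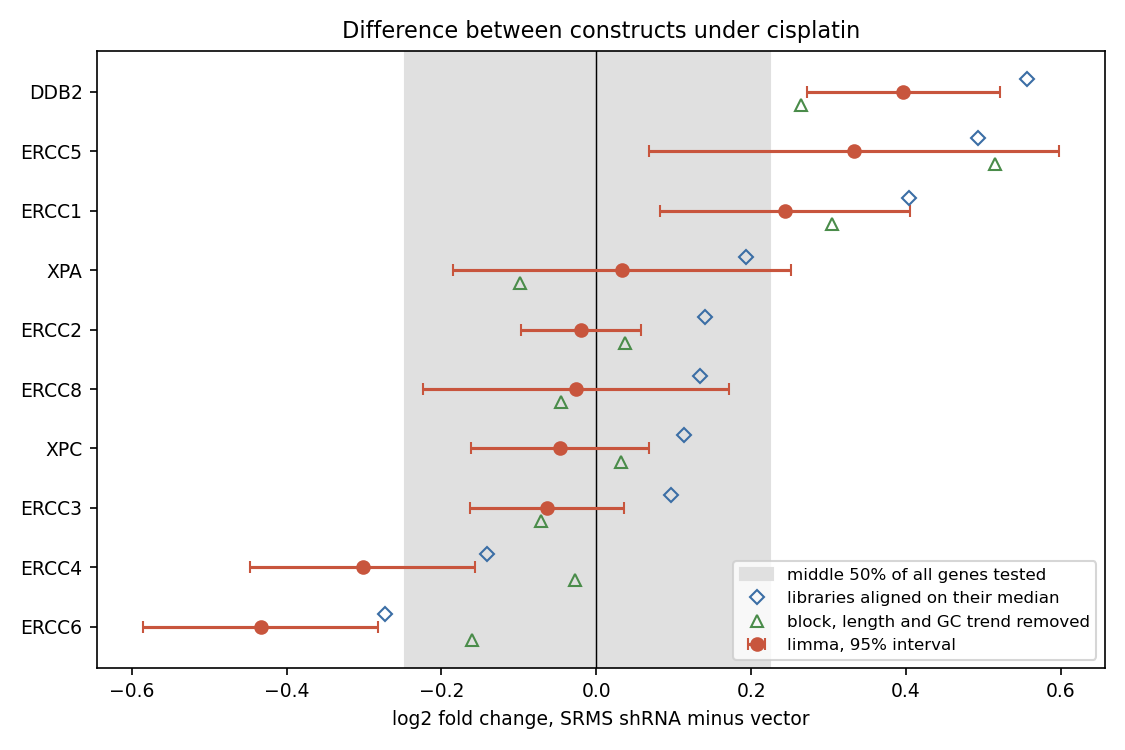
Log2 fold change (SRMS shRNA minus vector) of each gene with its 95% interval from limma (red), beside the values after median alignment (blue diamonds) and with the replicate block and length and GC trend removed (green triangles); the grey band spans the middle 50% of all genes tested. DDB2, ERCC1, ERCC5, ERCC6 and ERCC4 keep their direction in all 3 fits shown, though ERCC4 shrinks from -0.30 to -0.14 and -0.03.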

How the data were processed

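Poly(A) RNA of ES-2 cells was prepared by a stranded protocol and sequenced in paired ends, per the labels' protocols. FastQC, cutadapt, HISAT2, StringTie and edgeR, with GRCh38, are named in the submitters' processing notes; the sources used here do not state settings or the filter on low genes. The deposited table, named log CPM, is a linear signal, in which the authors deposited reads scaled to each library's effective size as CPM would be. Undoing that scale returned whole reads, within 0.1, for at least 99.99% of values in each library. Of 14042 rows, 13 for Y copies of pseudoautosomal genes were left out. All 14029 genes matched GENCODE 29 on GRCh38, which gave coordinates and 1 transcript per gene (coding, principal, longest).

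The main test was limma 3.58.1 (R 4.3.3) on log2(value + 0.5), its prior variance following the mean, without a replicate block, Benjamini-Hochberg adjusted over all genes, threshold 0.05. Fold changes are on that scale and understate those of low genes. The test was checked on simulated data with few changed genes and without a replicate offset, a length trend or a median shift. These data have such features, so the check does not cover them. Alternatives covered scaling (library medians aligned, or quantiles), a minimum mean log2 value of 1, pseudocounts of 1 and 0.1, no trend, array weights, the replicate block, the block with transcript length and GC trend removed, replicates 2 and 3 averaged, libraries left out, an absolute log2 fold change of 0.5, and edgeR 4.0.16 and DESeq2 1.42.0 on recovered reads. Named are all 10 members, SRMS, genes overlapping members, complex partners and up to 3 called genes per pathway list; members and lists were chosen with earlier results of these data known, and the text adds further list genes chosen after their values were seen.

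Replicates 2 and 3 of a group were closer to each other (chi-square per gene 1.79 and 1.65) than to replicate 1 (3.55 to 5.07), but not within sampling noise, so all were kept. Across genes, the deviations of same-numbered libraries from their group means had r of 0.309, 0.106 and 0.120. Each exceeded 0.1, and the numbers were treated as pairs in the fits with a replicate block, not in the main fit. Replicates 2 and 3 of opposite groups correlated as much (0.114 and 0.113), so these values do not show that replicates 2 and 3 were paired by number. Results that rest on items withheld for evaluation are not reported here.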

Additional observations from a re-analysis of the deposited data

How the results depend on the processing

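DDB2 and ERCC6 kept direction and call in all 19 refits, and ERCC1, ERCC4 and ERCC5 kept their direction in all 19 and their call in 14, 16 and 12. Among the members, 5 were called; quantile scaling left 3, averaging replicates 2 and 3 left 3, and a minimum absolute log2 fold change of 0.5 left 0. Leaving out single libraries gave 3 to 6, with 3 when vector replicate 1 or either of SRMS shRNA replicates 2 and 3 was left out. The fold minimum left 2394 of 7969 genes over the table and 6 of 36 called genes over the pathway lists; leaving out single libraries gave 6895 to 8324 and 29 to 37. The median log2 fold change of the members, -0.02, was 0.14 with median scaling, 0.071 with quantile scaling and -0.076 to 0.025 without single libraries. ERCC2 reversed to 0.14 with median scaling. The fit with the replicate block rests on the pairing by number. In it SRMS had 0.52 at a limma adjusted p of 0.00782 and ERCC3 became a call (0.0487). The block changed no other call among the members. Over the pathway lists it gave 17 higher and 24 lower in place of 14 and 22. Over all genes it gave 4349 higher and 4805 lower in place of 3736 and 4233. SRMS was also called without replicate 1 of both groups (0.51, adjusted p = 0.0331), and leaving out single libraries gave 0.23 to 0.84, called without SRMS shRNA replicate 1 (0.0245) or vector replicate 3 (0.0281). The causes were not tested. SRMS gave no value under the minimum mean. ERCC5 and SRMS, with 80 reads or fewer per library, rest on few reads, and the effect of depth on them was not tested.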
